A study of Mus musculus with 10 samples.

Results

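The genes of 9 transcription factors linked to the fate and identity of the retinal pigment epithelium (RPE) were examined: Mitf, Otx2, Otx1, Sox9, Pax6, Lhx2, Tfec, Tfeb and Klf4. They were chosen by name, and each symbol was matched to an Ensembl identifier among the 47729 genes of the count table. All 9 were found, and all 9 had enough counts to be tested among the 16362 genes that entered the fit, so no member was lost to the filter on low counts. The question was whether these regulators of the RPE move with overexpression of Nrf2 (gene Nfe2l2), the main activator of the antioxidant response.

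RNA came from the eyecups of 5 wild-type CD1 mice, an albino strain, at postnatal day 40 (P40), with 1 library from each eye. The GFP control eye had been injected with an AAV, an adeno-associated virus that carries a gene into cells, in which the human Best1 promoter drove GFP in the RPE. The Nrf2 eye of the same mouse had received that vector together with an AAV in which the same promoter drove the human Nrf2 coding sequence. An additional vector, in another capsid, thus went into the Nrf2 eyes alone, and Nrf2 cannot be told apart from that additional vector in these eyes. The retina was removed, the eyecup was put in RNA Protect, and RNA was purified from the supernatant, which the paper calls RPE RNA. The RNA was not sorted by cell, so fewer cells of a type and less RNA per cell cannot be told apart.

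Library totals ran from 12298404 to 27310638 counts, and 3 counts, the most that a count of 0 allows, came to 0.110 to 0.244 CPM (counts scaled to the library total). Amplified reads are not independent molecules, so that floor covers counting error only. Nfe2l2 was at 79.3 to 109.6 CPM in the control eyes and at 267 to 414 CPM in the Nrf2 eyes, with human and mouse reads not separated, and 9 of 9 NRF2 target genes rose. RPE markers such as Rpe65 and Rgr were abundant in every library, while Best1, whose promoter was used in the vectors, had only 2 to 33 counts per library. Other cells were present as well. The summed level of 12 rod markers ran from 42.0 to 20387 CPM, and that of 7 markers of surface epithelium and lens from 8473 to 40207 CPM. Mouse 2 had the most rod RNA in both eyes, and the control eye of mouse 4 had the next highest sum.

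In the developing eye, the same neuroepithelium can become retina or RPE. Pax6 and Lhx2 act in the early eye field, and Mitf and Otx2 are then required for the RPE, where they switch on genes of pigment formation. Mitf, Tfec and Tfeb belong to a family of basic helix-loop-helix leucine zipper factors that also includes Tfe3. Members of that family bind E-box letters, and Tfeb and Tfe3 are known for the CLEAR network of lysosome and autophagy genes. OTX proteins are homeodomain factors that bind the letters TAATCC, and Otx2 stays active in the mature RPE, in photoreceptors and in bipolar cells. Sox9 works with Otx2 and Lhx2 on genes of the visual cycle, the set of reactions that returns 11-cis-retinal to photoreceptors. Klf4 is a zinc finger factor of surface epithelia and of pluripotent cells, and it has been used in factor mixes to convert other cells to RPE.

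Of the 9 factors, 1 passed the test: Otx2 fell in the Nrf2 eyes, by 0.63 on the log2 scale. The other 8 did not pass, with adjusted p-values from 0.185 to 0.984 (edgeR quasi-likelihood F test blocked by mouse, Benjamini-Hochberg over all 16362 genes). Of all tested genes, 6.33% were called in either direction, 3.6% higher and 2.73% lower. With 9 genes, 1 call is close to that background. The log2 fold change was negative for 7 of the 9 and positive for 2, with a median of -0.08 beside -0.01 over all tested genes. Otx2 and Sox9 were lower in the Nrf2 eye of 5 of 5 mice, as were 10.9% of all tested genes. No factor was higher in all 5, as 9.23% of tested genes were. None of the 9 had groups that did not overlap in CPM, a separation seen in 6.28% of tested genes.

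**Figure D1:**
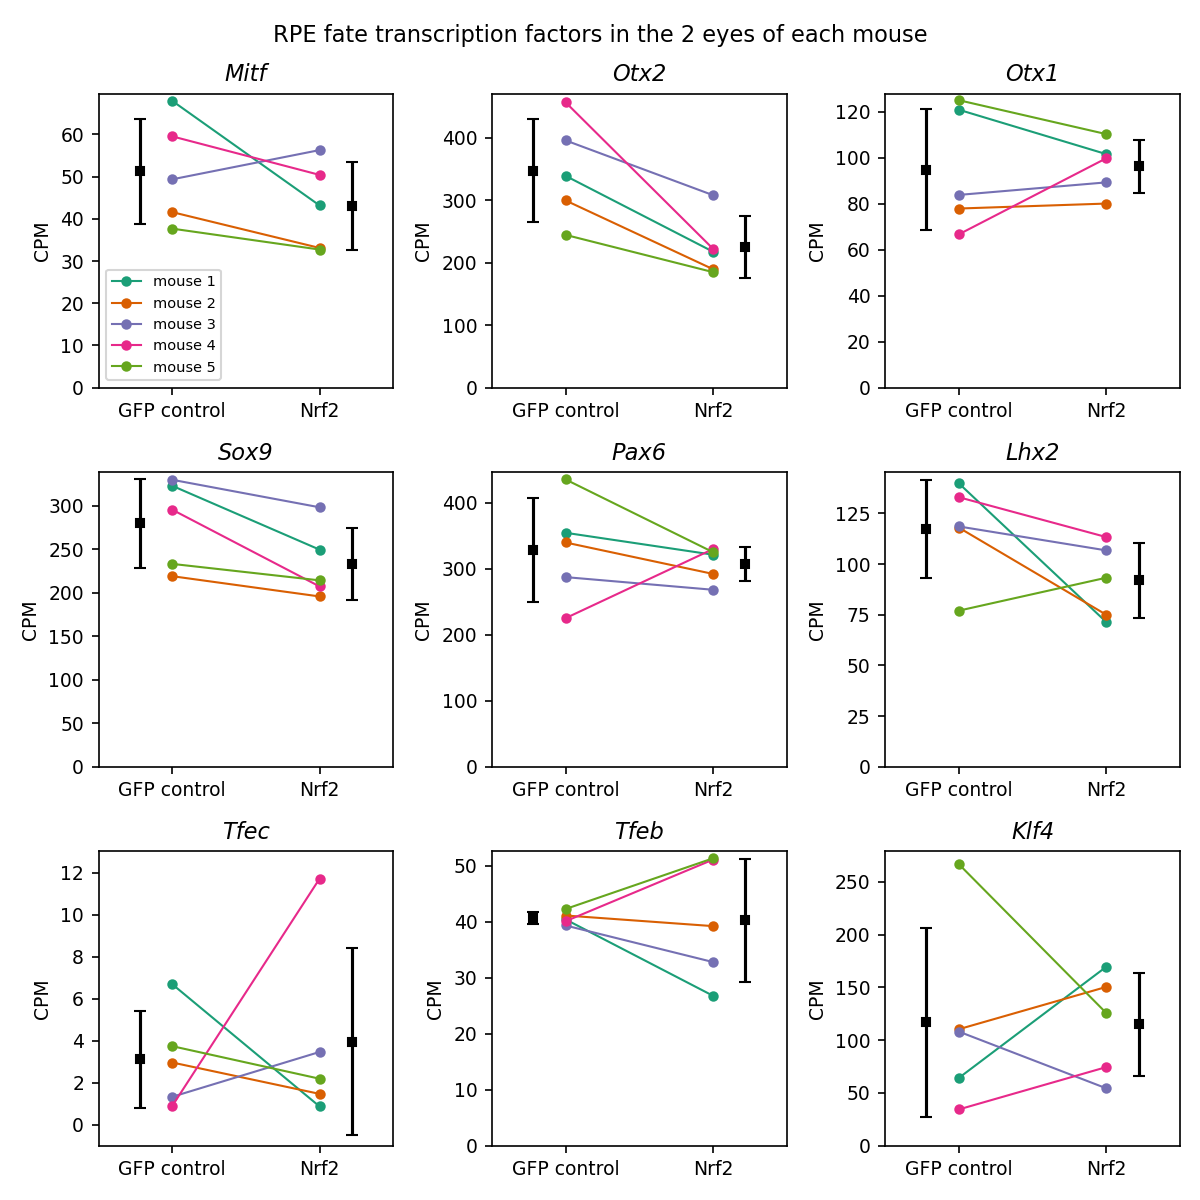
CPM of each factor in the GFP control eye and the Nrf2 eye, with a line for each of the 5 mice, and black squares with bars for the mean and SD of 5 eyes. Each of the 5 Otx2 lines and each of the 5 Sox9 lines slopes down, while the lines of Tfec and Klf4 cross widely.

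Counted per length of exon, the levels of the 9 factors in the control eyes spanned a wide range. The length was that of all annotated exons of a gene together, 11694 bases for Pax6 and 4221 for Otx2, so the order depends on the annotation. Without division by length, the control mean of Pax6 (328 CPM) was close to that of Otx2 (347 CPM). Otx2 had the highest mean, 82.2 ± 19.5 CPM per kb of exon (SD, n = 5), followed by Sox9 with 67.8 ± 12.4. Klf4 came next with 38.3 ± 29.4, then Pax6 with 28.1 ± 6.71, Lhx2 with 26.7 ± 5.55 and Otx1 with 17.5 ± 4.87 CPM per kb. Mitf had 8.27 ± 2.02, Tfeb 7.17 ± 0.20 and Tfec 0.56 ± 0.41 CPM per kb. Neighbours from Otx2 down to Otx1 overlapped in their ranges, as did Mitf and Tfeb. Otx1 and Mitf did not overlap (12.3 to 23.05 against 6.08 to 10.97 CPM per kb), nor did Tfeb and Tfec (6.94 to 7.45 against 0.16 to 1.19). Tfec thus stood under every other factor, and Mitf RNA was well below that of Otx2 in the same eyes. In the Nrf2 eyes, the mean of Otx2 was 53.2 CPM per kb, below the 56.4 of Sox9, and Tfeb (7.10) was just above Mitf (6.96), while the other 5 kept their order.

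**Figure D2:**
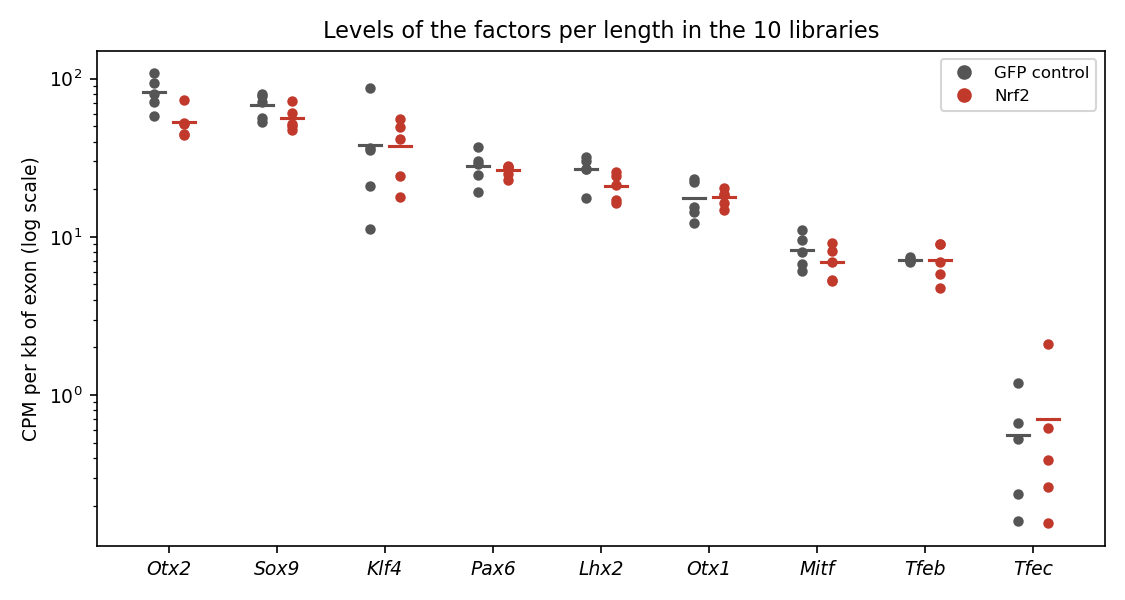
Level of each factor in CPM per kb of exon on a log axis, ordered by the control mean, with a point for each of the 5 eyes of a group and a line at the group mean. Otx2 and Sox9 lie highest, and Tfec lies below all others, at a control mean of 0.56 CPM per kb.

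Otx2 (ENSMUSG00000021848, chromosome 14, 48657677 to 48673819, minus strand, GRCm38) stood at 339, 299.6, 396, 457 and 245 CPM in the control eyes of mice 1 to 5. The values were 218, 189.7, 308, 223 and 185 CPM in their Nrf2 eyes. The Nrf2 eye was lower in each mouse, yet the groups overlapped, because mouse 3 had more Otx2 in its Nrf2 eye than was found in the control eyes of mice 2 and 5. The means were 347 ± 82.5 and 225 ± 49.6 CPM (SD, n = 5 each). This gave a log2 fold change of -0.63 with an SE of 0.13 (edgeR adjusted p = 0.0287). Within mice, the log2 difference was -0.56, -0.67, -0.34, -1.10 and -0.49, so mouse 4 had the largest and mouse 3 the smallest.

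The Otx2 call was near its limit. It was lost when any single mouse was left out, with adjusted p-values from 0.0591 to 0.124 and log2 fold changes from -0.67 to -0.49, and it was lost without the mouse block (adjusted p = 0.137). Of 14 alternative settings, Otx2 passed in 6, among them DESeq2 with an adjusted p of 0.00031. DESeq2 called 9.25% of the genes for which it gave an adjusted p. The direction was negative in all 14.

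Otx2 RNA is also made in photoreceptors and bipolar cells, so the RNA of these cells was set beside it. Rod markers, 11 of which were tested and 0 called, summed to 42.0, 20387, 221, 3004 and 441 CPM in the control eyes of mice 1 to 5. In the Nrf2 eyes they summed to 73.6, 7934, 124, 67.2 and 352 CPM. No rod marker was at 0 in all 10 libraries. The rod sum was lower in the Nrf2 eye of mice 2 to 5, and it dropped by the largest factor in mouse 4, where Otx2 also differed most. In mouse 1 the rod sum was higher in the Nrf2 eye, while Otx2 was lower there by 0.56 on the log2 scale. The sum of 9 cone markers, 8 of them tested and 0 called, was lower in the Nrf2 eye of 5 of 5 mice, as Otx2 was. It went from 18.1, 506, 33.9, 118 and 25.01 CPM in the control eyes to 15.8, 122, 28.3, 20.2 and 22.5 CPM in the Nrf2 eyes of mice 1 to 5, a mean log2 ratio of -1.04. Bipolar cell markers, 5 of 8 tested and 0 called, had a higher sum in the Nrf2 eye of 4 of 5 mice, mouse 1 being the exception. Across libraries, the control eye of mouse 1 had the least rod RNA and the third highest Otx2. With the rod list as a covariate, the log2 fold change of Otx2 was -0.49 and no longer passed (adjusted p = 0.103). Without mice 2 and 4, whose control eyes held the most rod RNA, it was -0.47 in the remaining 3 mice (adjusted p = 0.308). Calls over all genes also fell, from 1036 to 464 with the rod covariate and to 146 without mice 2 and 4. The lost Otx2 call therefore does not show the part of rod RNA, which was not tested separately. No covariate of cone or bipolar markers was fitted, and their part in the Otx2 values was not tested. RPE markers moved the same way as Otx2. Of 10, 7 fell and 0 rose, and their sum went from between 22558 and 49346 CPM in control eyes to between 10840 and 30127 CPM in Nrf2 eyes, lower in 5 of 5 mice with a mean log2 ratio of -1.01. Most of these markers are also among the target genes. Of the 10, 8 had negative log2 fold changes and 2 positive ones, Best1 and Ttr, neither of which passed. Ttr, which encodes a carrier of thyroid hormone, had 0.0024. Slc16a8 and Krt18, like Ttr not among those target genes, had negative values. The 7 that fell include a gene that is not among them. The part of RPE cell number in the Otx2 values was not tested.

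**Figure D3:**
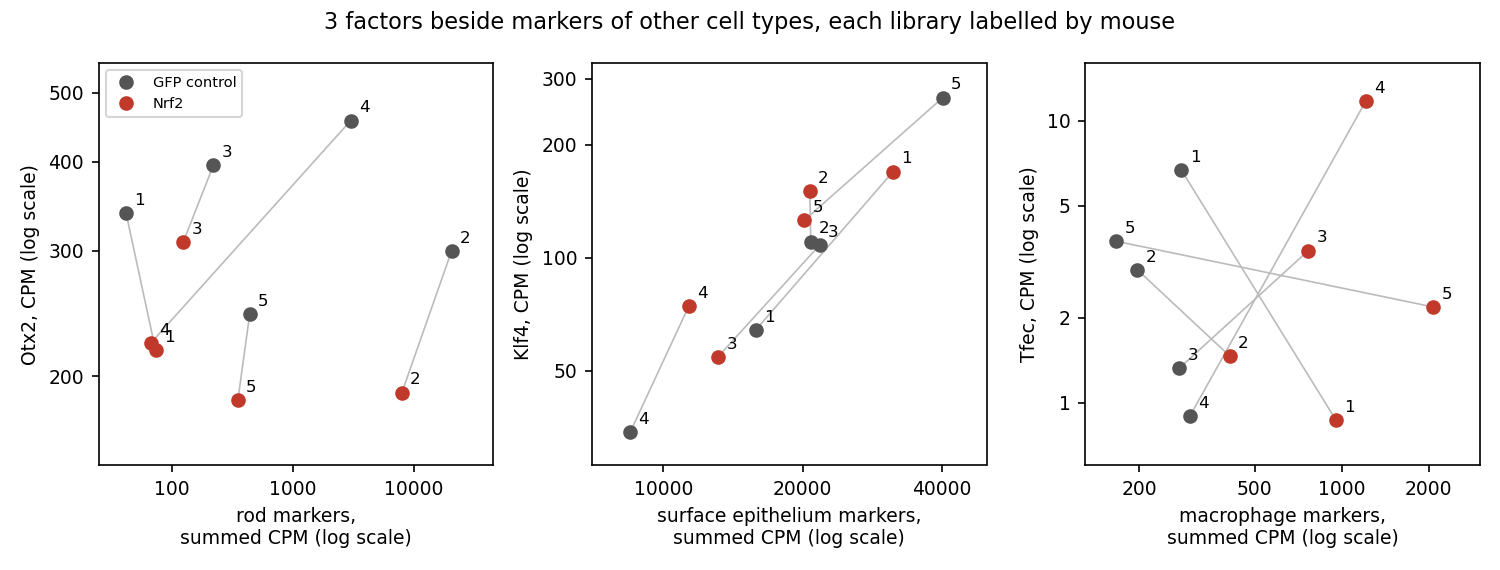
CPM of Otx2, Klf4 and Tfec against the summed CPM of rod, surface epithelium and macrophage markers in the 10 libraries, on log axes, with the mouse number beside each point and a line between the eyes of a mouse. Otx2 is lower in all 5 Nrf2 eyes at rod sums from 67.2 to 7934 CPM, and Klf4 is highest, 267 CPM, in the library with the most surface epithelium RNA.

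A long noncoding gene, Otx2os1, lies on the opposite strand of Otx2 with overlapping exons. Its counts were 5.92% of those of Otx2, and it was lower in 5 of 5 mice, at -0.74 on the log2 scale (SE 0.34, adjusted p = 0.201). The strand setting of the counting is not given in the sources used here, so reads in the shared exons cannot be assigned to one strand.

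Otx1 (ENSMUSG00000005917, chromosome 11, 21994764 to 22002897), the paralog that shares early functions with Otx2, was at 120.8, 77.9, 83.8, 66.7 and 125 CPM in the control eyes of mice 1 to 5. In the Nrf2 eyes it was at 101.6, 80.0, 89.2, 99.7 and 110.2 CPM, all within the range of the control eyes. The log2 fold change, 0.04 (SE 0.14), had an adjusted p of 0.925, 3 of 5 mice were higher, and the sign turned under several settings. The difference of Otx2 lay below that of Otx1 in 5 of 5 mice, by 0.68 ± 0.55 on the log2 scale (SD, n = 5). The two-sided exact permutation test of that difference gave 0.0625, the smallest p that 5 pairs allow, and 0.675 after adjustment over the 36 pairs of factors. No pair of factors could pass this test with 5 mice, so the differences between factors are given as a description.

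Mitf (ENSMUSG00000035158, chromosome 6, 97807052 to 98021349), the factor that defines the pigment cell program, was at 67.9, 41.6, 49.4, 59.5 and 37.7 CPM in the control eyes of mice 1 to 5. The Nrf2 eyes had 43.2, 33.1, 56.3, 50.4 and 32.7 CPM. Mice 1, 2, 4 and 5 were lower in the Nrf2 eye, mouse 3 was higher, and the groups overlapped over most of their range. At -0.26 (SE 0.13), the log2 fold change was not past the threshold (adjusted p = 0.317), and it was negative in all 14 alternatives, from -0.32 to -0.15.

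Tfeb (ENSMUSG00000023990, chromosome 17, 47737030 to 47792419) differed in spread more than in mean. Its control eyes held 40.4, 41.1, 39.3, 40.1 and 42.3 CPM, a coefficient of variation of 2.74%. Its Nrf2 eyes held 26.8, 39.2, 32.8, 51.1 and 51.3 CPM, a coefficient of variation of 27.2%. Mice 4 and 5 were thus above every control eye and mice 1, 2 and 3 below every control eye, which left a log2 fold change of -0.07 (SE 0.15) and an adjusted p of 0.858. Among the 9 factors, Tfeb had the lowest spread in the control eyes. The difference in spread was not tested.

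Tfec (ENSMUSG00000029553, chromosome 6, 16833373 to 16898441), a member of the family that is found in the RPE and in macrophages, had few counts, from 15 to 144 per library. The control eyes of mice 1 to 5 held 6.68, 2.96, 1.33, 0.90 and 3.73 CPM, and their Nrf2 eyes 0.87, 1.46, 3.46, 11.7 and 2.19 CPM. It was lower in the Nrf2 eye of mice 1, 2 and 5 and higher in mice 3 and 4. The within-mouse log2 differences ran from -2.74 to 3.50, the widest range of the 9 factors. The fitted log2 fold change was -0.07 and the mean of the 5 differences 0.06 (SE 1.08, adjusted p = 0.984), so no direction can be given.

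Macrophage markers stood beside Tfec, since 12 of 14 rose and their sum was 167 to 299 CPM in control eyes and 411 to 2069 CPM in Nrf2 eyes. The macrophage sum was higher in the Nrf2 eye of 5 of 5 mice. Tfec was higher in 2 of them, mouse 3, where the sum went from 275 to 767 CPM, and mouse 4, where it went from 299 to 1211 CPM. Tfec was lower in the other 3, where the sum went from 279 to 958 CPM in mouse 1, from 197 to 411 CPM in mouse 2 and from 167 to 2069 CPM in mouse 5. The part of macrophages in the Tfec values was not tested. The highest Tfec values, in the control eye of mouse 1 and the Nrf2 eye of mouse 4, were in the libraries with the highest sums of 13 pigment genes, 11357 and 10681 CPM.

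Tfe3, the remaining member of the Mitf family, was not among the 9 and was singled out after its values were seen. It was at 41.5, 40.2, 39.0, 41.6 and 39.1 CPM in the control eyes and at 47.5, 55.9, 42.7, 63.1 and 63.7 CPM in the Nrf2 eyes of mice 1 to 5. Its groups did not overlap, a separation seen in 6.28% of tested genes. It was narrow, with 41.6 CPM in the highest control eye and 42.7 CPM in the lowest Nrf2 eye. Its log2 fold change of 0.41 (SE 0.09) had an adjusted p of 0.0678 and did not pass, although DESeq2 gave 0.0363 and the fit without the mouse block 0.0418.

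Sox9 (ENSMUSG00000000567, chromosome 11, 112782224 to 112787760), an activator of visual cycle genes in the RPE that is also made by Mueller glia, was at 323, 219, 330.1, 296 and 233 CPM in the control eyes of mice 1 to 5. The Nrf2 eyes had 249.7, 196, 298, 207 and 214 CPM. Sox9 was lower in each Nrf2 eye, by 0.30, 0.18, 0.13, 0.58 and 0.21 on the log2 scale, and the groups overlapped. The log2 fold change of -0.28 (SE 0.08) had an unadjusted p of 0.0272 and an adjusted p of 0.185. It was negative in all 14 alternatives, from -0.29 to -0.17, and passed in 0 of them. The difference of Otx2 lay below that of Sox9 by 0.36 ± 0.14 (SD, n = 5) in 5 of 5 mice (exact permutation p = 0.0625, adjusted p = 0.675 over 36 pairs). As for Otx2, the largest difference was in mouse 4.

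Lhx2 (ENSMUSG00000000247, chromosome 2, 38339281 to 38369733), a LIM homeodomain factor, was at 139.9, 118, 119, 133 and 77.0 CPM in the control eyes of mice 1 to 5. The Nrf2 eyes held 71.5, 75.03, 106.8, 113 and 93.2 CPM. The 4 highest libraries were control eyes, but the control eye of mouse 5 was lower than 3 of the Nrf2 eyes. With an SE of 0.19, the log2 fold change of -0.36 had an adjusted p of 0.291, with a range over single mice left out of -0.50 (mouse 5) to -0.19 (mouse 1).

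Pax6 (ENSMUSG00000027168, chromosome 2, 105668900 to 105697364), a paired domain factor of the eye field, was at 354, 339.7, 287, 225 and 435 CPM in the control eyes of mice 1 to 5 and at 321, 292, 268, 329.6 and 325 CPM in their Nrf2 eyes. Mouse 4 alone was higher in the Nrf2 eye, and all 5 Nrf2 eyes lay within the control range. At -0.08 (SE 0.16), the log2 fold change had an adjusted p of 0.853.

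Klf4 (ENSMUSG00000003032, chromosome 4, 55527143 to 55532466) had the largest coefficient of variation of the 9 in the control eyes, 76.8%, with 64.2, 110.3, 108, 34.3 and 267 CPM in the control eyes of mice 1 to 5. The Nrf2 eyes had 169, 150.4, 54.4, 74.4 and 126 CPM. Mice 1, 2 and 4 were higher and mice 3 and 5 lower in the Nrf2 eye, so that 0.17 as a log2 fold change had an SE of 0.53 (adjusted p = 0.900).

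Klf4, Pax6 and Otx1 had their extremes in the same libraries as the summed level of surface epithelium markers. The list of 7 such markers, 6 of them tested and 0 called, summed to 15825, 20834, 21778, 8473 and 40207 CPM in the control eyes of mice 1 to 5 and to 31375, 20734, 13115, 11350 and 20180 CPM in their Nrf2 eyes. The keratins Krt5 (1840 to 8227 CPM) and Krt15 (2034 to 8334 CPM) were present in every library, and no marker was at 0 in all 10. Krt12, a keratin gene of the cornea, had the highest mean of the list over the 10 libraries (9004 CPM) and ranged from 3.46 CPM in the control eye of mouse 4 to 29094 CPM in that of mouse 5. The markers did not all peak together: Krt14 was highest in the Nrf2 eye of mouse 5 (1635 CPM), beside 639 CPM in its control eye, the lens gene Cryaa was highest in the Nrf2 eye of mouse 3 (993 CPM), and Foxe3 was at most 0.23 CPM. In the control eye of mouse 5, which had the highest sum, Klf4, Pax6 and Otx1 each had their highest value of the 10 libraries. In the control eye of mouse 4, which had the lowest sum, each had its lowest value. With that list as a covariate, the log2 fold changes of Klf4 and Otx1 were both -0.05 and that of Pax6 was -0.19, and none of the 3 passed. The part of these cells in the values of the 3 factors was not tested.

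The known targets of these factors did not follow one pattern. Of 8 genes, Best1 and 7 of the visual cycle, 7 fell and 0 rose, and the median log2 fold change was -1.78 beside -0.01 over all tested genes. Rpe65, which encodes the isomerase of the cycle, was at 3310.4, 2783, 4519, 4067 and 2781 CPM in the control eyes of mice 1 to 5 and at 578, 198, 1080.0, 524 and 352 CPM in their Nrf2 eyes. The groups were far apart, and the decrease was -2.88 on the log2 scale (SE 0.30, adjusted p = 0.0017). Rgr, which encodes a retinal G protein-coupled receptor, fell by 2.87 (SE 0.34), Lrat, which esterifies retinol, by 2.26 (SE 0.27) and Rlbp1, a retinaldehyde binding protein, by 1.93 (SE 0.24) on the log2 scale. Rdh10, Rdh5 and Stra6 fell by 1.63, 1.42 and 1.14, and without the mouse block Stra6 was not past the threshold (-1.11, adjusted p = 0.0628). Best1, at its very low count, had 0.70 (SE 0.41) with an adjusted p of 0.492. In each of the 5 mice, Rpe65 was reduced by more than Otx2 and by more than Sox9. Without mice 2 and 4, 2 of the 7 genes, Rpe65 and Lrat, passed. The log2 fold changes of the other 5 in those 3 mice were -2.51 for Rgr, -1.63 for Rlbp1, -1.39 for Rdh10, -1.13 for Rdh5 and -0.92 for Stra6.

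**Figure D4:**
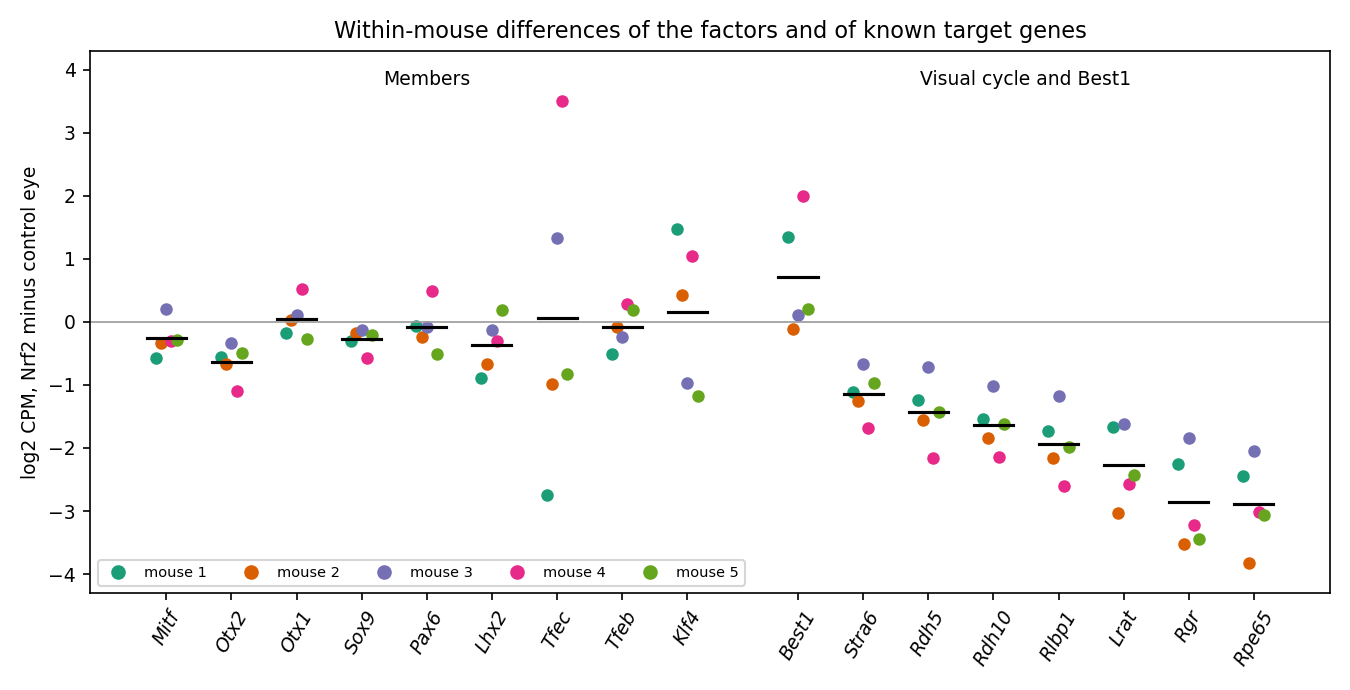
Log2 CPM of the Nrf2 eye minus that of the control eye in each of 5 mice, for the 9 factors and for 8 target genes, with a line at the mean. All 5 points of Otx2, of Sox9 and of 7 target genes are negative, and Rpe65 (mean fold change -2.88 on the log2 scale) lies far below every factor's mean.

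Among 13 pigment genes, the classic targets of Mitf, 1 fell and 0 rose, with a median log2 fold change of 0.17. That is 7.7% called, close to the 6.33% of all tested genes. Gpr143, the gene of ocular albinism, fell by 0.63 (SE 0.13, adjusted p = 0.0291). That call was near its limit, since it held in 6 of 14 alternatives and in 1 of 5 fits without a single mouse (adjusted p from 0.0328 without mouse 3 to 0.118 without mouse 2), and it was lost without the mouse block (adjusted p = 0.232). Tyr, the gene of tyrosinase, had 0.88 on the log2 scale (SE 0.54, adjusted p = 0.338) and was higher in 4 of 5 mice, with mouse 1 opposite. Without mouse 1, Tyr was past the threshold at 1.35 (adjusted p = 0.0478). Oca2, a melanosome channel gene, had -0.37 (SE 0.23), Rab27a, which moves melanosomes, -0.37 (SE 0.13) and Gpnmb, a melanosome glycoprotein gene that macrophages also express, 0.37 (SE 0.55), none past the threshold. Choroidal melanocytes also make these RNAs. Of 5 tested melanocyte and Schwann cell markers, 1 was called: Sox10 fell, with values between 36.5 and 78.7 CPM in control eyes and between 9.35 and 27.6 CPM in Nrf2 eyes. Sox10 passed in 13 of 14 alternatives, but not without mice 2 and 4 (-1.60, edgeR adjusted p = 0.0899). The summed level of the 6 markers was 176 to 391 CPM in control eyes and 161 to 259 CPM in Nrf2 eyes, and within mice it was higher in the Nrf2 eye of 3 of 5. The 391 CPM were in the control eye of mouse 5, which stood apart from the other 4 (176 to 221 CPM). The part of these cells in the pigment values was not tested.

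Among 21 CLEAR genes, targets of Tfeb and Tfe3, 3 rose and 0 fell, with a median log2 fold change of 0.03. That is 14.3% called, beside 6.33% of all tested genes. The protease gene Ctsd rose by 1.85 (SE 0.11, adjusted p = 0.0022), the autophagy receptor gene Sqstm1 by 0.82 (SE 0.09) and the carboxypeptidase gene Ctsa by 0.72 (SE 0.12, adjusted p = 0.0162). The Ctsa call was lost without mouse 3 (adjusted p = 0.0520), without mouse 4 (0.0526), without mice 2 and 4 (0.214) and with the rod covariate (0.0741), while its log2 fold change was at least 0.61 in all 14 alternatives. The rod covariate left 2 of the CLEAR calls, and 0 passed without mice 2 and 4. Lamp1, of the lysosome membrane, had 0.46 (SE 0.07) with an adjusted p of 0.0532, and it passed in 5 of 14 alternatives. Hexa, which encodes a hexosaminidase subunit, had 0.62 (SE 0.19, adjusted p = 0.0722), Wipi1, an autophagy gene, -0.64 (SE 0.25, adjusted p = 0.138) and Rragd, a GTPase gene of nutrient signalling, -0.40 (SE 0.17). DESeq2 called Lamp1 (adjusted p = 0.0014), Hexa (0.0083) and Wipi1 (0.0484). Sqstm1 is also a known NRF2 target, and macrophages, whose markers rose, are rich in Ctsd. Their part in these values was not tested.

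Of 24 other regulators of eye and RPE development, 22 were tested and 1 was called, or 4.5%, beside 6.33% of all tested genes. Nr2e1, a nuclear receptor gene of neural progenitors, fell, with values between 41.2 and 83.0 CPM in control eyes and between 10.1 and 45.5 CPM in Nrf2 eyes, a change of -1.54 on the log2 scale (SE 0.21) with an adjusted p of 0.0039. It stayed past the threshold without any single mouse, but not without the mouse block (-1.40, adjusted p = 0.0691) or without mice 2 and 4 (-1.43, adjusted p = 0.108). Without the block, the 1 regulator called was Tfe3, which was higher. Sox2, a gene of neural stem cells and Mueller glia, had the largest positive value, 1.85 (SE 0.50, adjusted p = 0.112), at 1 to 97 counts per library. Crx, the photoreceptor relative of Otx2, had -0.93 (SE 0.93), with 176 CPM in the control eye of mouse 2 and 0.20 CPM in that of mouse 1. Tbx5 had -0.59 (SE 0.42). The median log2 fold change of the 22 was -0.020.

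**Figure D5:**
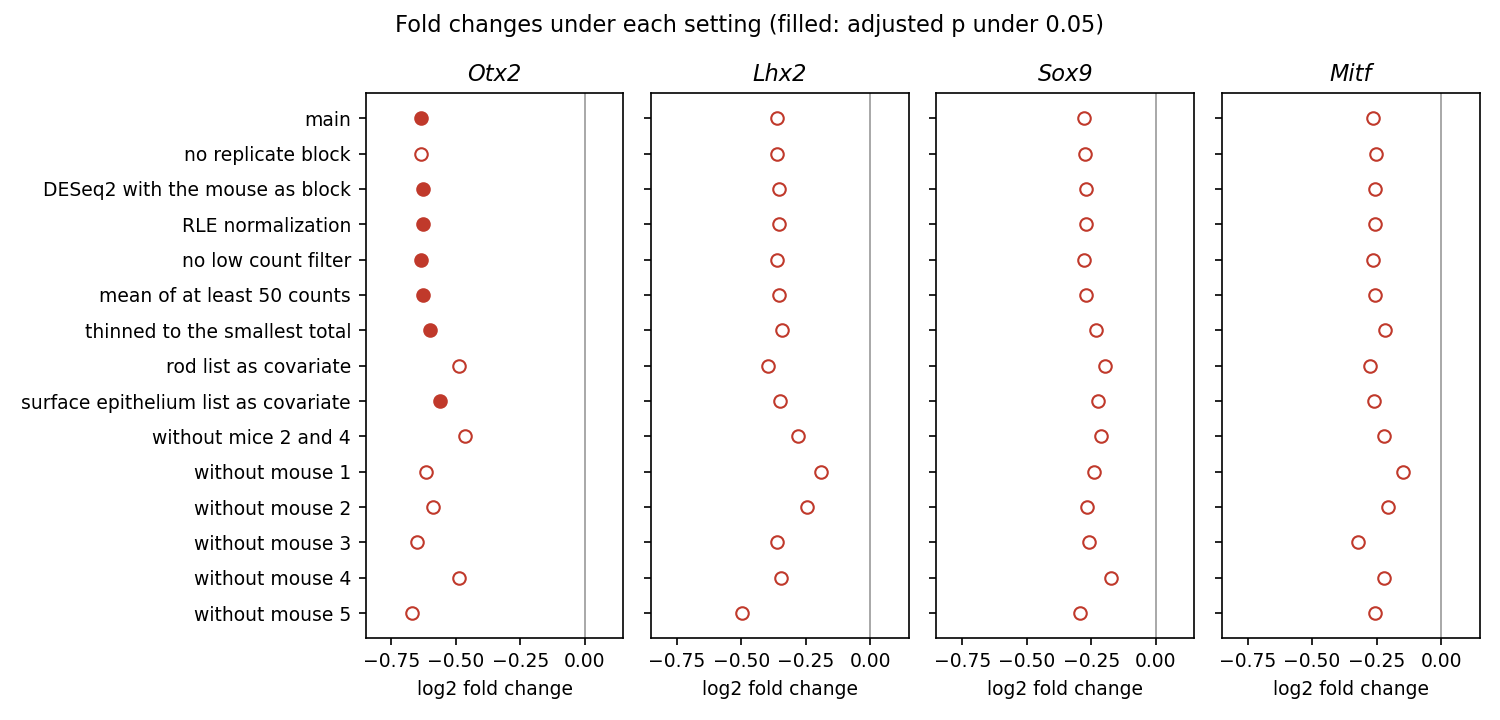
Log2 fold change of Otx2, Lhx2, Sox9 and Mitf under the main setting and 14 alternatives, filled where the adjusted p was under 0.05. All points lie below 0, and only Otx2 has filled points, in the main setting and in 6 alternatives.

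The sequences upstream of these genes were read to see which known letters they share. RefSeq start sites on GRCm38.p6 were given for 7 of the 9 factors, with 16 windows of 250 bases before a start, and not for Otx1 and Sox9. On either strand, the OTX letters TAATCC were in 2 of the 16 windows, 1 of Mitf and 1 of Otx2, and in 6.25% of all 32851 windows. The E-box CACGTG was in 1 of the 16, of Klf4 (6.02% of all windows), and the E-box CATGTG in 1, of Otx2 (12.3%). The core of the antioxidant response element that NRF2 binds, TGANNNNGC, was in 7 of the 16 windows. These belong to 6 of the 7 factors with windows, all but Klf4. It is a common run of letters, found in 35.2% of all windows. All these counts include bases of annotated exons, and the TAATCC and TGANNNNGC matches of Otx2 lie in such bases. The factors' windows were rich in CpG, with a median of 14 per window beside 6 over all windows.

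One start of Otx2 is shown because Otx2 was the factor that passed the test. It lies inside the gene between exons, at chr14:48667645-48667894 on the minus strand, and capitals mark the E-box CATGTG, which reads CACATG on this strand.
Otx2: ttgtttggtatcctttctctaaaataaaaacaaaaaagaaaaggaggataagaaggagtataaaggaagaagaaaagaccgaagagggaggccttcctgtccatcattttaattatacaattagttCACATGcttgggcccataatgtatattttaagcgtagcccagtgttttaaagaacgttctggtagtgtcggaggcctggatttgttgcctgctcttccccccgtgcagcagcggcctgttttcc

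Of the visual cycle list with Best1, 7 genes had windows, 10 in all. TAATCC was in 3 of the 10, of Rpe65, Rgr and Best1, and TGANNNNGC in 0. The Best1 match lies in bases of an annotated exon. Rpe65 and Rgr, with the largest decreases of the list, are shown, at chr3:159598931-159599174 on the plus strand and chr14:37049015-37049264 on the minus strand. Capitals mark the OTX letters, which read GGATTA in Rpe65, with the first base 42 before the start, and TAATCC in Rgr, 167 before the start. In Rpe65 they also mark an E-box, CACATG.
Rpe65: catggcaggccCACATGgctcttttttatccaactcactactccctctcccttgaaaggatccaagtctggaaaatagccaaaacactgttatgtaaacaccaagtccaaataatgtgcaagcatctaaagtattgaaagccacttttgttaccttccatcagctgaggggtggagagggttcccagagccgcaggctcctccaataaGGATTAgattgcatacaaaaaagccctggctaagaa
Rgr: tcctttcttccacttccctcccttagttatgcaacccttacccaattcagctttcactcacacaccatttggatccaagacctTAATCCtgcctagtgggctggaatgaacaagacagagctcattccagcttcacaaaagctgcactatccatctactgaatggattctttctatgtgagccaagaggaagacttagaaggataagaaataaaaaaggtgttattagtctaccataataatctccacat

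CATGTG was in 6 of the 10 windows of 8 pigment genes, of Tyr, Tyrp1, Dct, Oca2, Slc24a5 and Trpm1, beside 12.3% of all windows. None of these 6 passed the test between the eyes. Tyr is shown as the one with the largest value, at chr7:87493513-87493762 on the minus strand, with the E-box in capitals 21 bases before the start.
Tyr: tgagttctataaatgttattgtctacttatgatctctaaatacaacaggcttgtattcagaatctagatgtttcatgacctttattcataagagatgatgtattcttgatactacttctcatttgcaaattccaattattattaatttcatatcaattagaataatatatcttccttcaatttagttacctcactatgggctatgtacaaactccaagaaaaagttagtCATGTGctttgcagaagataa

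A match says only that the letters are present, and binding was not measured here.

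Genes whose level was most like that of each factor across the 10 libraries were sought among 15189 genes, as a description over eyes that share mice. For Otx2 they were Clic6, Tspan3 and Arl6ip1, with Pearson's r of 0.99 for each. For Klf4 they were Gsn, Fosl2 and Pcdh1 (r from 0.98 to 0.995), and for Pax6 Rnf139, Raver2 and Lrig1 (0.97 to 0.98). For Lhx2 they were Ildr2, Atp11a and Casc4 (0.96 to 0.98), for Mitf Rhobtb3, Ptpra and Tnfrsf19 (0.96 to 0.97) and for Sox9 Ech1, Ddx3y and Gm13134 (0.95 to 0.97). The lowest likeness was that of Tfeb, with Mtm1, Timm21 and Chek1 (0.92 to 0.94), beside Otx1 with Sec24c, Top3a and Lta4h (0.94). For Tfec they were Rab3b, a gene with no symbol (ENSMUSG00000054178) and Il6st (0.95 to 0.96). None of the 9 factors was among the 3 genes most like another factor.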

How the data were processed

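RNA was measured in 10 eyecup libraries, 1 Nrf2 and 1 GFP control eye from each of 5 mice. The authors aligned reads to mm10 with STAR and counted them per gene with featureCounts, and also ran Salmon 0.8.2 (version per the submitters' processing notes). The file deposited holds whole-number counts for each Ensembl gene, without normalization. The strand setting, and which of the count tables was deposited, are not given in the sources used here. Per the labels sequencing took 2 runs, and the titles of all 10 libraries share 1 date.

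Of 47729 genes, 15729 had no count in any library, and 47310 (99.1%) matched GENCODE M21 (GRCm38) for symbols, positions and exon lengths. There were 0 columns of other samples. Totals ran from 12298404 to 27310638 counts. The test was that of edgeR 4.0.16 under R 4.3.3 (filterByExpr, TMM, quasi-likelihood F test, mouse as block, Benjamini-Hochberg, threshold 0.05), a procedure tested on simulated data. Adjusted p-values of genes come from edgeR unless DESeq2 1.42.0 is named. Each SE was obtained from the SD, over 5 mice, of the log2 CPM difference between eyes (2 added as prior count), scaled to the mean of 5. Pairs of factors were compared with an exact permutation test that flips signs within mice.

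The eyes were paired by the animal number in the labels. Deviations from group means correlated across genes with r from 0.19 to 0.71 between eyes of a mouse, and from -0.42 to 0.28 (median -0.08) between mice. The factors and all 18 lists were chosen with earlier results of these data known. All 9 factors were named, with called genes and up to 4 examples per list, and the 3 genes most like each factor, among genes with a mean of at least 1 CPM. Alternatives were no block, DESeq2, RLE normalization, other count filters, thinning, a rod covariate and leaving out mice. The surface epithelium covariate and the fit without mice 2 and 4 were added after seeing the data. Promoter windows came from RefSeq. Bases of annotated exons were left out of the printed sequences but were kept in the counts of letters. A few genes of these lists are not reported here.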

Additional observations from a re-analysis of the deposited data

Results flagged for a closer look

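No level of the 9 factors was flagged. Among 52 groups of 5 log2 levels checked, covering the factors and the marker and target lists, 5 held a library far from the other 4 by Dixon's 95% criterion, where chance gives about 1 in 20, or 2.6. All 5 were summed levels of other cell types. In mouse 2, cone markers stood high in the Nrf2 eye (log2 summed CPM 6.93, 122 CPM), and bipolar cell markers stood high in the control eye (7.27, 154 CPM) and in the Nrf2 eye (7.96, 249 CPM). Mouse 2 also had the most rod RNA. Otx2, which bipolar cells and photoreceptors express, had neither its highest nor its lowest value in that mouse. In the control eye of mouse 5, melanocyte and Schwann cell markers stood high (8.61, 391 CPM) and ciliary body markers stood low (4.79, 27.7 CPM). In that eye, Klf4, Pax6 and Otx1 had their highest values, and Otx2, Mitf and Lhx2 had the lowest values of the control eyes. The part of these cells in the factors' values was not tested.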

How the results depend on the processing

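Otx2 kept a negative log2 fold change in all 14 alternatives, from -0.67 to -0.47, and Mitf, Sox9 and Lhx2 did too without passing in any. The count of factors called, 1, became 0 without the mouse as a replicate block, with the rod covariate, without mice 2 and 4, and without any single mouse (0 in each). Genes called over the whole table numbered 1036, and 1812 with DESeq2, 464 with the rod covariate, 146 without mice 2 and 4, and 584 to 857 without a single mouse. Without the block 755 were called, 687 of them shared with the 1036. DESeq2 called 3 other regulators, of which Tfe3 and Sox2 were higher and Nr2e1 lower, and 6 CLEAR genes, 5 higher and 1, Wipi1, lower. Without the block, the 1 other regulator called was higher, Tfe3, in place of Nr2e1. Without mice 2 and 4, 0 other regulators, 0 CLEAR genes, 0 pigment genes and 2 visual cycle genes passed. Pigment calls were 0 without the block, with the rod covariate and with the surface epithelium covariate, and 0 to 1 without a single mouse. The 1 call without mouse 1 was Tyr, which was higher, and the 1 call without mouse 3 was Gpr143, which was lower. Leaving out single mice gave 1 other regulator and 7 visual cycle genes each time, and 2 to 3 CLEAR genes.

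Genes that did not pass turned sign as follows. Without the block, Tfec was at 0.29 and Klf4 at -0.052. With the rod covariate, Otx1 was at -0.12, Klf4 at -0.062, Gpnmb at -0.21 and Crx at 0.26. With the surface epithelium covariate, Otx1 and Klf4 were at -0.046 and -0.047. Without mice 2 and 4, Otx1 was at -0.11, Klf4 at -0.27 and Crx at 0.34. Without single mice, the ranges were -0.82 to 0.70 for Tfec, -0.14 to 0.53 for Klf4, -0.14 to 0.073 for Tfeb, -0.046 to 0.13 for Otx1 and -0.19 to 0.026 for Pax6. The cause of these changes was not tested, and fits without mice rest on fewer samples. Best1 had 2 to 33 counts per library and Tfec 15 to 144, and the part of depth in their spread was not tested.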
